A study of Homo sapiens with 36 samples.

Results

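The HOXA cluster and MEIS1 programme is a set of 10 human genes that KMT2A fusion proteins are known to switch on in acute leukaemia. The genes were taken from a fixed list: HOXA3, HOXA5, HOXA6, HOXA7, HOXA9, HOXA10, MEIS1, PBX3, MEF2C and HOTAIRM1. Of these, 9 had transcripts in the deposited tables, among 35472 genes formed by summing transcripts by symbol, and they held 109 of 207175 listed transcripts. HOTAIRM1, a long noncoding RNA read from the opposite strand at the anterior end of the cluster, had 6 transcripts in GENCODE 29 and was not analysed here.

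RNA was sequenced from a pair of established lines of human acute monocytic leukaemia, MOLM-13 and MONO-MAC-6, both labelled as wild type and grown in RPMI with fetal bovine serum. MOLM-13 received DMSO, the vehicle, or 0.125 µM A9 for 72 h. MONO-MAC-6 received DMSO or 0.25 µM A9 for the same 72 h. A9 is labelled as a PROTAC, a molecule that brings a target protein to the ubiquitin machinery for degradation; its targets are NR4A1 and a kinase that the design text calls IKK2 and the title calls IKK1. Both lines are known to carry the KMT2A-MLLT3 fusion, so all 4 groups share it, and the fusion transcript itself was not analysed here. Each group had 9 libraries, and the 3 libraries that shared a first number in their label were averaged to 1 sample, which gave 3 samples per group and 12 in all. Each line is a single established culture, and the labels do not say that samples came from separate cultures. Line, dose and table cannot be told apart.

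The KMT2A gene encodes a histone methyltransferase, and its fusion partners in leukaemia recruit factors that release paused RNA polymerase. At the HOXA locus this keeps homeobox genes active that are normally shut down as blood stem cells mature. HOXA9 protein binds DNA with MEIS1 and PBX3, homeodomain proteins of the TALE class, and this complex is known for keeping myeloid progenitors dividing. MEF2C is a MADS-box transcription factor and a further direct target of KMT2A fusions.

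Values are TPM, abundances that are corrected for transcript length and scaled to a fixed total, and that therefore allow levels to be compared between genes. Each library summed to 1000000 TPM, so the depth behind a value cannot be read from it and no counting error is shown. The monocytic label held for both lines: 8 of 11 monocytic markers averaged 1 TPM or more in MOLM-13 DMSO and 9 of 11 in each other group. CD14, CSF1R and ITGAX were under 1 TPM in MOLM-13 DMSO, and CSF1R and CD4 were under 1 TPM in both MONO-MAC-6 groups. The summed level of these markers was 335 to 366 TPM in MOLM-13 DMSO, 546 to 597 TPM in MOLM-13 A9, 3264 to 3829 TPM in MONO-MAC-6 DMSO and 7932 to 8271 TPM in MONO-MAC-6 A9. Single markers differed between the lines in both directions, as given with the A9 results of these markers below. Lymphoid, erythroid and epithelial markers summed to between 2.68 and 11.7 TPM in every sample, with CD3E, MS4A1 and HBB at 0.

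The sequences that bear on the values are given first. In RefSeq (GRCh38.p14), 8 of the 10 genes had an entry, with 21 start sites among them. The 250 bases before a start are shown 5′ to 3′ on the gene's strand, with every CG dinucleotide in capitals, for starts of HOXA9, HOXA10 and MEF2C whose share of the gene's TPM is described with the single transcripts. The MEF2C start is the one with the largest share of MEF2C TPM in MOLM-13 DMSO among its RefSeq starts. The HOXA10 distal start is the RefSeq start of the HOXA10-HOXA9 readthrough, and it is shown because HOXA10-202 begins there.
HOXA9, chr7:27165538-27165787, minus strand: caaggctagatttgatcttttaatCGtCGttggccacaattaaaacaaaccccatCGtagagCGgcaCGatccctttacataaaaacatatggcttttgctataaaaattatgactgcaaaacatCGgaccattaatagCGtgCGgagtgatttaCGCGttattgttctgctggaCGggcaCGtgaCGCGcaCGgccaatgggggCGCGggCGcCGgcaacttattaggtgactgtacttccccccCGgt
HOXA10 proximal, chr7:27174321-27174570, minus strand: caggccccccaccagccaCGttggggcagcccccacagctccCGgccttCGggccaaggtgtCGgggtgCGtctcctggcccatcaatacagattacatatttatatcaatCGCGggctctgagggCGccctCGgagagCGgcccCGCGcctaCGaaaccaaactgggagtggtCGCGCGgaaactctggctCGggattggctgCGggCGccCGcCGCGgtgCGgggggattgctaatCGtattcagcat
HOXA10 distal, chr7:27180240-27180489, minus strand: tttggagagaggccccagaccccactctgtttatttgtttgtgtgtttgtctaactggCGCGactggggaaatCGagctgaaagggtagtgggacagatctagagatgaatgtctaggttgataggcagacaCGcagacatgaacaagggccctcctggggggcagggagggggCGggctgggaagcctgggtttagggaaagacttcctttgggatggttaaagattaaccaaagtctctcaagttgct
MEF2C, chr5:88883185-88883434, minus strand: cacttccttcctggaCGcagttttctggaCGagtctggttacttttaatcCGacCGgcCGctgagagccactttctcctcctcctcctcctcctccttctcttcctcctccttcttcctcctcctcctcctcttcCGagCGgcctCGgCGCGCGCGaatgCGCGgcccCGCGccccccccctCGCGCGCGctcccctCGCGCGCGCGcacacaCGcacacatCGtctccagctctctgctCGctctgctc
The proximal HOXA10 window held 24 CG dinucleotides in its 250 bases, the HOXA9 window 20 and the MEF2C window 28, while the distal HOXA10 window held 5. HOXA10 also has a distal RefSeq start under its own symbol, at chr7:27179861, whose window is not printed and held 19. HOXA10-202 begins at -400 bases from that start, so the low CG count of the distal window depends on which entry is taken. Among all 35116 promoters of this length the median was 11, and 65.7% had at least as many as the distal HOXA10 window against 23.7% for the proximal one. On both strands of the 21 windows, which leave out the readthrough window, the MEIS hexamer TGACAG was found in 4 (MEF2C and PBX3) and in 13% of all promoters. The PBX-HOX motif TGATTNAT was found in 0 of the 21 windows and in 2.48% of all promoters. The NR4A monomer motif AAAGGTCA was found in 0 and in 1.05% of all promoters. The NF-kB consensus was found in 2 windows (MEF2C and PBX3) and in 5.21% of all promoters. The starts behind these matches held differing shares of their gene's TPM. A transcript was credited to a start when its 5′ end lay within 500 bases of it. By this rule the PBX3 start held a mean of 0.689% of PBX3 TPM in MOLM-13 DMSO and less in each other group. The main PBX3 transcripts, PBX3-201 and PBX3-204, begin at -838 and -745 bases from that start. The PBX3 window scanned here thus lies downstream of their 5′ ends, and the bases before those ends were not scanned. The MEF2C start with the NF-kB match held from 0.806% of MEF2C TPM (MOLM-13 DMSO) to 12.7% (MONO-MAC-6 A9). Of the MEF2C starts with a MEIS match, chr5:88904105 held from 8.34% (MOLM-13 DMSO) to 19.1% (MONO-MAC-6 DMSO). The start at chr5:88824344 held from 4.81% (MOLM-13 A9) to 12.4% (MONO-MAC-6 DMSO), and that at chr5:88827192 at most 1.22% (MOLM-13 DMSO). The MEF2C window printed above had no MEIS or NF-kB match.

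A pair of coding segments is shown because transcripts with and without them make up the members' isoforms. The first is an exon of PBX3-204 that PBX3-201 lacks (113 bases, GRCh38, CG in capitals). The second is a stretch of the first HOXA9 exon that is retained in HOXA9-201 and removed as an intron in HOXA9-202 (173 bases, its first and last 2 bases in capitals).
PBX3 exon, chr9:125962102-125962214, plus strand: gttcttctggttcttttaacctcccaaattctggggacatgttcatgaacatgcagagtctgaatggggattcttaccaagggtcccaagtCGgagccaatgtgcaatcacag
HOXA9 segment, chr7:27164968-27165140, minus strand: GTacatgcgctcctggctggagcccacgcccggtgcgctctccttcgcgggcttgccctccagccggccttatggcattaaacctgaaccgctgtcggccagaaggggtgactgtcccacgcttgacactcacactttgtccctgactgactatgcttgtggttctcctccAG
The capitals of the HOXA9 segment are GT and AG, the bases that end a standard intron. The coding sequence of HOXA9-201 is 816 bases long and that of HOXA9-202 is 318 bases, and the truncated protein of this kind lacks the homeodomain. The coding sequence of PBX3-204 is 1302 bases long and that of PBX3-201 is 1053 bases.

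HOXA9 and HOXA10, the posterior genes of the cluster, were the most abundant HOXA members in every group. HOXA9 (ENSG00000078399, chr7:27162435-27175180) was at 65.1, 59.8 and 57.4 TPM in MOLM-13 DMSO and at 58.4, 84.1 and 83.3 TPM in MONO-MAC-6 DMSO. HOXA10 (ENSG00000253293, chr7:27170591-27180261) was at 44.5, 44.1 and 44.1 TPM in MOLM-13 DMSO and at 19.0, 26.5 and 27.9 TPM in MONO-MAC-6 DMSO. The HOXA9 groups overlapped and the HOXA10 groups did not. The middle and anterior members were all lower. HOXA7 (ENSG00000122592, chr7:27153716-27157936) was at 6.63, 5.91 and 6.33 TPM in MOLM-13 DMSO and at 10.6, 14.4 and 14.1 TPM in MONO-MAC-6 DMSO. HOXA5 (ENSG00000106004, chr7:27141052-27143668) was at 5.74, 3.58 and 4.51 TPM in MOLM-13 DMSO and at 6.07, 5.83 and 6.77 TPM in MONO-MAC-6 DMSO. Both genes were higher in every MONO-MAC-6 DMSO sample than in any MOLM-13 DMSO sample. HOXA6 (ENSG00000106006, chr7:27145396-27150603) ranged from 0.763 to 4.82 TPM and HOXA3 (ENSG00000105997, chr7:27106184-27152581) from 1.37 to 4.42 TPM over the DMSO samples, with overlapping lines. The antisense genes HOXA-AS2, HOXA-AS3 and HOXA10-AS overlap these members, and since strand is not given in the sources used here, their reads cannot be told apart from those of the members. The annotated extents of HOXA9 and HOXA10 also overlap on the same strand, so reads of shared stretches could be divided between them.

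Among the cofactors, PBX3 was above HOXA10 in every MONO-MAC-6 DMSO sample and below it in every MOLM-13 DMSO sample, and MEIS1 was below HOXA9 and HOXA10 in both lines. PBX3 (ENSG00000167081, chr9:125747345-125967377) was at 38.6, 34.7 and 30.5 TPM in MOLM-13 DMSO and at 70.9, 99.7 and 95.7 TPM in MONO-MAC-6 DMSO. MEIS1 (ENSG00000143995, chr2:66433452-66573869) was at 21.3, 18.2 and 16.2 TPM in MOLM-13 DMSO and at 9.96, 13.9 and 14.4 TPM in MONO-MAC-6 DMSO. The lines were apart for both cofactors, with PBX3 higher and MEIS1 lower in MONO-MAC-6. MEF2C (ENSG00000081189, chr5:88717117-88904257) was at 82.7, 50.3 and 34.7 TPM in MOLM-13 DMSO and at 6.12, 14.0 and 17.4 TPM in MONO-MAC-6 DMSO. Its lines did not overlap either, and its range within MOLM-13 DMSO was the widest of the abundant members.

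**Figure D1:**
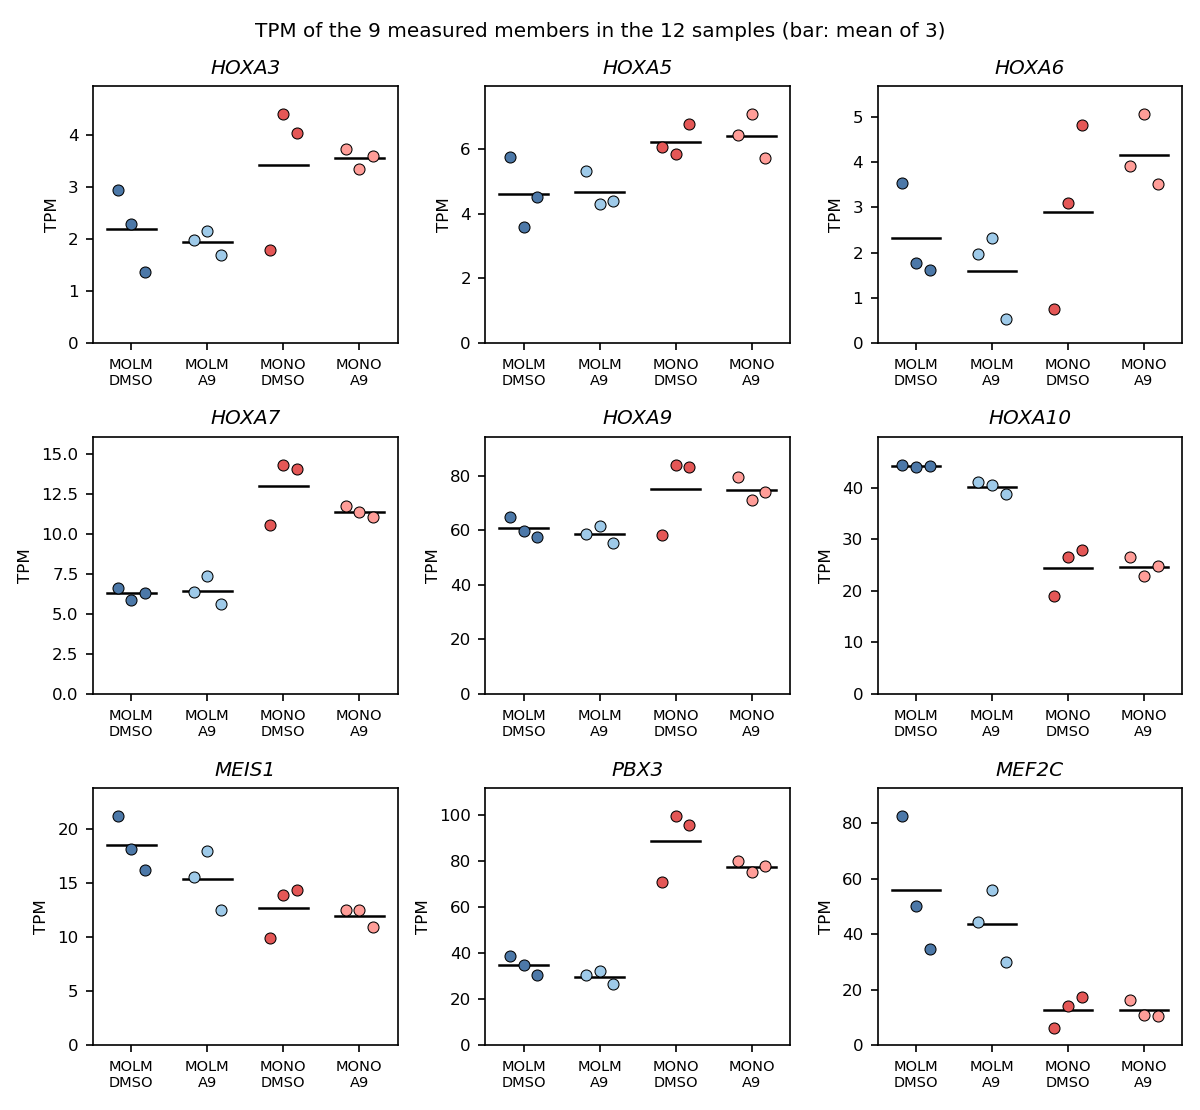
Each panel plots the TPM of 1 of the 9 measured members in the 12 samples, by line and treatment, with a bar at the mean of 3 samples. HOXA9 lies between 55.5 and 84.1 TPM in all groups, PBX3 is higher and HOXA10 and MEF2C are lower in MONO-MAC-6, and HOXA10 in MOLM-13 is the only panel where the DMSO and A9 points of a line are apart.

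Ordered by mean level, the MOLM-13 DMSO group ran from HOXA9 at 60.8 TPM through MEF2C at 55.9 and HOXA10 at 44.2 to PBX3 at 34.6 and MEIS1 at 18.6. HOXA9 and MEF2C overlapped across samples, as did MEF2C and HOXA10, whereas PBX3 and MEIS1 did not. In MONO-MAC-6 DMSO the order was PBX3 at 88.8 TPM, HOXA9 at 75.3 and HOXA10 at 24.4, followed by HOXA7 at 13.02, MEIS1 at 12.8 and MEF2C at 12.5. PBX3 overlapped with HOXA9 there, and HOXA7, MEIS1 and MEF2C overlapped with one another. HOXA3 and HOXA6 were the lowest members in every group.

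Along the locus, the level peaked at HOXA9 in both lines. The anterior genes HOXA2 (0.25 to 0.54 TPM) and HOXA4 (0.54 to 1.67 TPM) were low in all 12 samples. Posterior to HOXA10, HOXA11 was at 19.0, 19.3 and 19.6 TPM in MOLM-13 DMSO and at 7.99, 8.82 and 8.78 TPM in MONO-MAC-6 DMSO. HOXA13, the last gene of the cluster, was at 27.5, 26.7 and 24.4 TPM in MOLM-13 DMSO and at 2.94, 3.48 and 3.20 TPM in MONO-MAC-6 DMSO. From HOXA10 onward, every MOLM-13 DMSO sample was thus above every MONO-MAC-6 DMSO sample, while HOXA7 was the other way round.

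**Figure D2:**
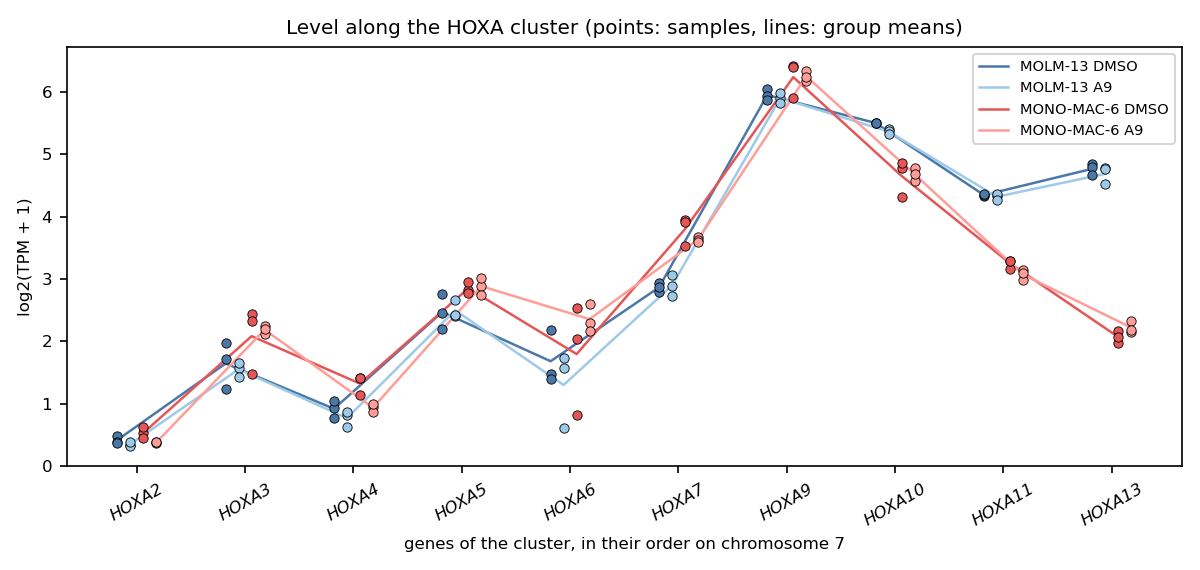
Levels on the log2(TPM + 1) scale of 10 HOXA genes in their order along the cluster, with points for samples and lines through the means of the 4 groups. Each level is a sum over coding and noncoding transcripts. The DMSO and A9 lines of a cell line run close together, all peak at HOXA9 in these sums, and the cell lines part at HOXA10, HOXA11 and HOXA13.

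The first comparison asked whether A9 changed the programme in MOLM-13. A member was called changed when its limma p, adjusted over all genes tested, was under 0.05. By this threshold 0 of 9 measured members were called, and 0 had an unadjusted p under 0.05, where 0.121% of the 11596 genes tested were called, 0.0862% higher and 0.0345% lower, and 7.89% had an unadjusted p under 0.05. HOXA9 was at 58.8, 61.8 and 55.5 TPM with A9, so 1 of 3 samples lay below the DMSO range and the other two within it. Its log2 difference, A9 minus DMSO on log2(TPM + 1), was -0.05 (SE 0.077, 95% interval -0.23 to 0.14, limma adjusted p = 0.896). HOXA10 was at 41.1, 40.5 and 38.8 TPM with A9, below all 3 DMSO samples, with a difference of -0.14 (SE 0.064, 95% interval -0.29 to 0.02, adjusted p = 0.697). It was the only member whose groups did not overlap, 1 of 9, against 15% of all genes.

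The cofactors and MEF2C were lower on average in A9-treated MOLM-13 with overlapping samples. MEIS1 was at 15.6, 18.0 and 12.6 TPM with A9, a difference of -0.26 (95% interval -0.65 to 0.13, adjusted p = 0.805). PBX3 was at 30.6, 31.99 and 26.5 TPM, a difference of -0.21 (95% interval -0.50 to 0.07, adjusted p = 0.777). MEF2C was at 44.5, 55.9 and 29.9 TPM, a difference of -0.31 (95% interval -1.16 to 0.54, adjusted p = 0.872). For MEF2C the interval spans a fall of more than 1 log2 unit as well as a rise, so its direction is undetermined in these samples. The intervals of HOXA7 (-0.27 to 0.33), HOXA5 (-0.39 to 0.44) and HOXA3 (-0.58 to 0.39) lay on both sides of 0, as did that of HOXA6 (-1.23 to 0.47), whose A9 samples at 1.96, 2.31 and 0.529 TPM spread as widely as its DMSO samples. The median difference was -0.14 over the members and -0.05 over all genes tested.

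The same comparison in MONO-MAC-6 also called 0 of 9 members, with 0 at an unadjusted p under 0.05, where 3.36% of 12869 genes were called, 2.51% higher and 0.855% lower, and 20.4% had an unadjusted p under 0.05. HOXA9 was at 79.6, 71.2 and 74.0 TPM with A9, a difference of 0.01 (SE 0.16, 95% interval -0.36 to 0.39, adjusted p = 0.967). HOXA10 was at 26.5, 22.8 and 24.7 TPM, a difference of 0.03 (95% interval -0.37 to 0.43, adjusted p = 0.921). All A9 samples of both genes lay within the range of their DMSO samples. MEIS1 was at 12.6, 12.5 and 11.0 TPM (difference -0.07, 95% interval -0.47 to 0.33, adjusted p = 0.806), and MEF2C at 16.1, 11.0 and 10.6 TPM (difference 0.09, 95% interval -0.81 to 0.99, adjusted p = 0.887).

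The values of PBX3 and HOXA7 in MONO-MAC-6 depended on the first DMSO sample. PBX3 was at 79.9, 75.2 and 77.6 TPM with A9, above DMSO sample 1 at 70.9 and below the other DMSO samples at 99.7 and 95.7, a difference of -0.18 (SE 0.14, 95% interval -0.51 to 0.16, adjusted p = 0.467). HOXA7 was at 11.7, 11.4 and 11.1 TPM with A9 against 10.6, 14.4 and 14.1 with DMSO, a difference of -0.17 (95% interval -0.51 to 0.18, adjusted p = 0.499). Without DMSO sample 1, PBX3 was lower by -0.33 (adjusted p = 0.00244) and HOXA7 by -0.30 (adjusted p = 0.0148), so that 2 of 9 members were called, and 3202 of 12924 genes were called instead of 433 of 12869. The members HOXA3 (0.10), HOXA5 (0.03) and HOXA6 (0.56, 95% interval -0.47 to 1.59, adjusted p = 0.456) were not called either. No member's groups were apart, 0 of 9 against 37.9% of all genes.

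**Figure D3:**
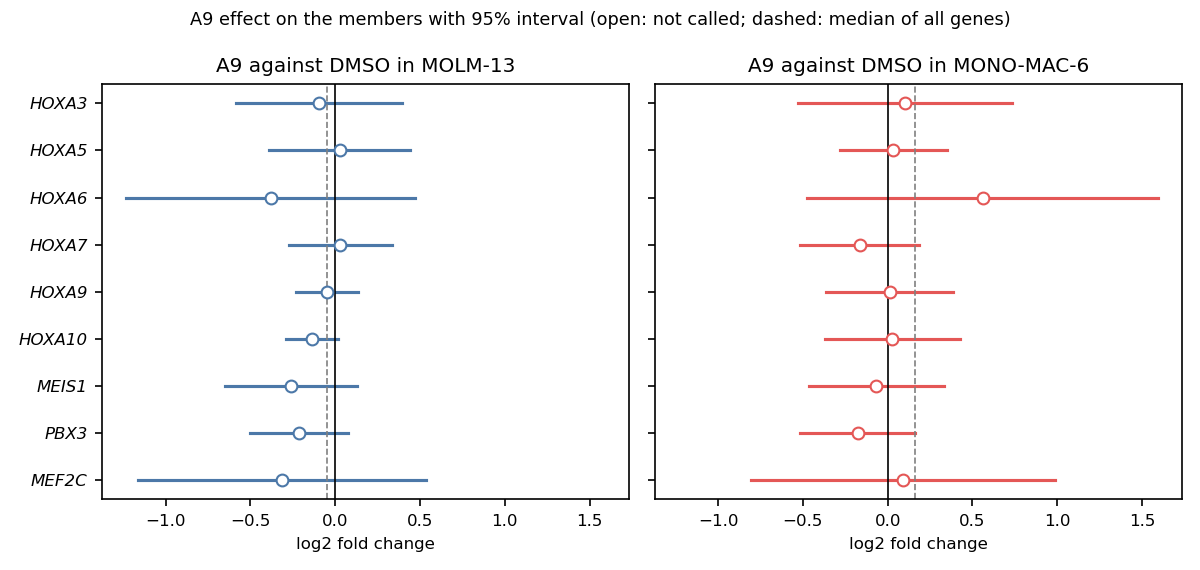
Log2 fold change, A9 against DMSO, of the 9 members in each line with its 95% interval from limma, open where not called, and a dashed line at the median of all genes. Every interval crosses 0, the narrowest being those of HOXA10 and HOXA9 in MOLM-13 and the widest those of HOXA6 and MEF2C in both lines.

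In MONO-MAC-6 the median difference was 0.16 over all genes and 0.03 over the members. After median-ratio scaling, which divides each sample by its median ratio to a reference, these medians were 0.02 and -0.13, and HOXA3, HOXA5, HOXA9, HOXA10 and MEF2C changed sign. Measured against all genes, the members' median was lower by -0.13 as deposited and by -0.15 after scaling. Of the genes called, 323 were higher and 110 lower as deposited, and 353 were higher and 210 lower after scaling.

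The samples differed along an axis that ran across treatment. DMSO sample 1 of MONO-MAC-6 had a mean transcript length, weighted by TPM, of 1241 bases against 1419 to 1444 in the other 5 samples of the line, and ribosomal protein genes held 25.0% of its TPM against 18.7% and 18.2% in the other DMSO samples. It was the lowest of the 6 MONO-MAC-6 samples in 8 of 9 members, HOXA5 being the exception. In MOLM-13 the mean length ranged from 1227 to 1414 bases. HOXA9 and MEF2C stood in the same order as this length in 15 of 15 pairs of the 6 MOLM-13 samples, PBX3 and HOXA6 in 14, MEIS1 and HOXA3 in 13, HOXA7 in 12, HOXA10 in 10 and HOXA5 in 9. The part of this axis in the members' values was examined by removing each sample's trend on transcript length, an alternative chosen after seeing the data. The A9 difference was then -0.22 for MEF2C (adjusted p = 0.695) and -0.06 for HOXA9 (adjusted p = 0.653) in MOLM-13, and -0.35 for PBX3 (adjusted p = 0.0223) in MONO-MAC-6.

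The spread between samples was compared with that between repeat libraries of 1 sample. For MEF2C in MOLM-13 DMSO the SD on the log2 scale was 0.617 between samples and 0.0984 between repeat libraries, while for HOXA10 in the same group it was 0.00674 and 0.0756. Across the 9 members the median SD in that group was 0.187 between samples and 0.0984 between repeat libraries, and in MONO-MAC-6 DMSO it was 0.289 and 0.133. With A9 the medians were 0.141 and 0.12 in MOLM-13 and 0.103 and 0.125 in MONO-MAC-6, so the order was the other way round in the last group. Calls depended on which libraries count as 1 sample. Libraries that share a first number had a consensus correlation of 0.736 in the MOLM-13 comparison and 0.759 in the MONO-MAC-6 comparison. An average by the second number holds 1 library of each sample, so the spread between samples does not enter its p-values. Averaging libraries by their second number instead called 5 members in MOLM-13 (HOXA6, HOXA10, MEIS1, PBX3 and MEF2C, all lower) and 3 in MONO-MAC-6 (HOXA6 higher, HOXA7 and PBX3 lower), with 5437 and 8701 of all genes called.

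An interaction term over all 12 samples asked whether the A9 difference itself depended on the line. It called 0 of 9 members, with 0 at an unadjusted p under 0.05, where 2.99% of 13410 genes were called, 1.92% higher and 1.07% lower, and 17.7% had an unadjusted p under 0.05. For HOXA9 the difference of differences, MONO-MAC-6 minus MOLM-13, was 0.06 (95% interval -0.34 to 0.46, adjusted p = 0.835). It was 0.17 for HOXA10 (adjusted p = 0.556), 0.19 for MEIS1 (adjusted p = 0.605) and 0.04 for PBX3 (adjusted p = 0.906). For HOXA6 it was 0.94 (95% interval -0.41 to 2.29, adjusted p = 0.396). Median-ratio scaling moved the median over all genes from 0.20 to 0.02, and HOXA5, HOXA9, HOXA10, MEIS1 and PBX3 then had differences below 0.

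The lines were then compared at baseline, with DMSO alone. Here 4 of 9 members were called, 2 higher and 2 lower in MONO-MAC-6, where 48.8% of the 12922 genes tested were called, 30.4% higher and 18.4% lower. The share of members is thus near that of all genes. PBX3 was higher by 1.32 on the log2 scale (SE 0.16, 95% interval 0.93 to 1.72, limma adjusted p = 0.000897) and HOXA7 by 0.93 (SE 0.16, 95% interval 0.56 to 1.31, adjusted p = 0.00314). HOXA10 was lower, at -0.85 (SE 0.16, 95% interval -1.23 to -0.47, adjusted p = 0.00529), and MEF2C at -2.10 (SE 0.45, 95% interval -3.19 to -1.0, adjusted p = 0.00949). These 4 calls held whichever of the 6 samples was left out.

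MEIS1 was lower in MONO-MAC-6 by a margin that did not pass, -0.52 (SE 0.18, 95% interval -0.96 to -0.07, adjusted p = 0.0569), and it passed with median-ratio scaling at -0.59 (adjusted p = 0.00167). HOXA9 differed by 0.29 (95% interval -0.10 to 0.67, adjusted p = 0.186), and without MONO-MAC-6 DMSO sample 1 by 0.46 (adjusted p = 0.00345). HOXA5 differed by 0.38 (adjusted p = 0.124), HOXA3 by 0.44 (adjusted p = 0.299) and HOXA6 by 0.11 (adjusted p = 0.861). HOXA3 was called without MONO-MAC-6 DMSO sample 1, at 0.74 (adjusted p = 0.0342). The groups did not overlap for 6 of 9 members, against 59.1% of all genes. The members' median difference was 0.29 and that of all genes 0.12.

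**Figure D4:**
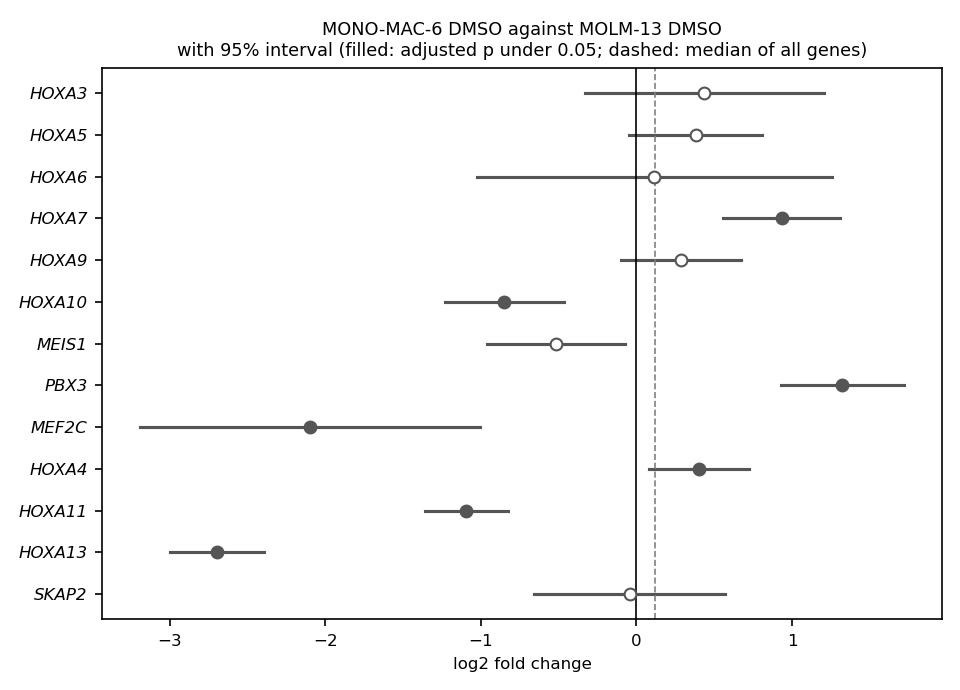
Log2 fold change, MONO-MAC-6 DMSO against MOLM-13 DMSO, of the members and 4 neighbours in the locus with its 95% interval from limma, filled for an adjusted p under 0.05, and a dashed line at the median of all genes. PBX3, HOXA7 and HOXA4 are filled to the right of 0, and HOXA10, MEF2C, HOXA11 and HOXA13 to the left.

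Of the 11 other listed genes of the HOXA locus, 4 were tested at baseline, with 1 higher and 2 lower. HOXA13 was lower in MONO-MAC-6 by -2.69 (SE 0.13, adjusted p = 1.52e-05) and HOXA11 by -1.09 (SE 0.11, adjusted p = 0.000345). HOXA4 was higher by 0.40 (adjusted p = 0.0451; 0.69 with an added 0.1 TPM), a call lost on leaving out any of 5 of the 6 samples and with the length trend removed (0.16, adjusted p = 0.356). With A9, 0 of 3 tested locus genes were called in MOLM-13 and 0 of 4 in MONO-MAC-6, with 0 and 1 at an unadjusted p under 0.05. HOXA11 was at 19.0, 19.5 and 18.3 TPM and HOXA13 at 26.3, 26.3 and 21.9 TPM in A9-treated MOLM-13, and both overlapped with DMSO. In MONO-MAC-6 the A9 and DMSO samples were apart for 3 of the 4 tested locus genes, against 37.9% of all genes. HOXA4 was at 0.925, 0.828 and 1.002 TPM with A9 and at 1.67, 1.66 and 1.21 TPM with DMSO, a difference of -0.39 (SE 0.13, adjusted p = 0.168). HOXA11 was at 7.82, 6.92 and 7.51 TPM with A9, a difference of -0.18 (adjusted p = 0.398). SKAP2, a gene beside the cluster, was at 12.9, 15.5 and 12.6 TPM with A9 and at 6.94, 11.8 and 11.2 TPM with DMSO, a difference of 0.44 (adjusted p = 0.293).

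Of 10 listed genes of the HOXB, HOXC and HOXD clusters, only HOXC4 reached a mean of 1 TPM in any group and was tested. It was at 38.0, 33.1 and 27.95 TPM in MOLM-13 DMSO and at most 0.0693 TPM in MONO-MAC-6 DMSO, a baseline difference of -5.04 (SE 0.15, adjusted p = 3.64e-06). The size of such a difference is set by the added 1 TPM where 1 line is near 0, and with an added 0.1 TPM it was -8.04 for HOXC4. With A9 it was at 22.5, 23.4 and 17.0 TPM in MOLM-13, below all DMSO samples, a difference of -0.63 that did not pass (SE 0.16, adjusted p = 0.292).

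Among 9 other TALE genes, 7 were tested at baseline and 2 were called. PBX4, a relative of PBX3, was at 0.0267, 0.0493 and 0.0228 TPM in MOLM-13 DMSO and at 4.21, 5.00 and 3.86 TPM in MONO-MAC-6 DMSO, a difference of 2.37 (SE 0.12, adjusted p = 2e-05), or 5.06 with an added 0.1 TPM. MEIS2 was at 26.6, 20.6 and 16.9 TPM in MOLM-13 DMSO and at 5.18, 11.3 and 12.4 TPM in MONO-MAC-6 DMSO, a difference of -1.13 (adjusted p = 0.0327) that was lost in 3 of 6 fits leaving out 1 sample. In MOLM-13 the MEIS2 level exceeded that of MEIS1 in all 3 DMSO samples. With A9, 0 of 5 TALE genes were called in MOLM-13 and 0 of 7 in MONO-MAC-6, with 1 in each line at an unadjusted p under 0.05.

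Of the listed genes for the complex and elongation partners of KMT2A fusions, 20 of 20 averaged 1 TPM or more in at least 1 line and were tested at baseline, with 4 higher and 2 lower in MONO-MAC-6. ELL2, an elongation factor subunit, was higher by 1.92 (adjusted p = 0.00164; 3.02 with an added 0.1 TPM), and MLLT10, a DOT1L cofactor, was lower by -1.50 (adjusted p = 0.00178). EAF1 was higher by 0.89 (adjusted p = 0.0319) and MEN1, which encodes the menin scaffold of the fusion, by 0.66 (adjusted p = 0.0182), each lost in 4 of 6 fits that left out 1 sample. A9 called 0 of 19 of them in MOLM-13 and 0 of 20 in MONO-MAC-6, with 0 and 3 at an unadjusted p under 0.05.

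Of 19 other KMT2A-fusion target genes, 17 were tested at baseline, with 2 higher and 3 lower. FLT3, a receptor tyrosine kinase, was at 84.4, 71.0 and 59.4 TPM in MOLM-13 DMSO and at 524, 858 and 911 TPM in MONO-MAC-6 DMSO, a difference of 3.37 (SE 0.24, adjusted p = 9.41e-05). LAMP5 was at 102, 102 and 101 TPM in MOLM-13 DMSO and at 1.11, 1.26 and 1.10 TPM in MONO-MAC-6 DMSO, a difference of -5.58 (SE 0.11, adjusted p = 1.34e-06). SKIDA1 was lower by -3.38 (adjusted p = 6.27e-05; -5.77 with an added 0.1 TPM) and RUNX2 higher by 1.40 (adjusted p = 0.00198). With A9, 0 of 17 were called in MOLM-13 (2 at an unadjusted p under 0.05), where 15 were lower and 2 higher in direction with a median of -0.21. Over all genes tested there the median was -0.05, and 62.0% lay below 0.003, the difference of PBX2. Whether the direction count differs from that of all genes was not tested. In MONO-MAC-6, 1 of 16 was called: LAMP5 was at 0.42, 0.38 and 0.38 TPM with A9, all below DMSO, a difference of -0.63 (SE 0.10, adjusted p = 0.0293). That call was lost in 5 of the 6 fits that left out 1 sample, and LAMP5 was at 1.26 TPM or less in all 6 samples. With an added 0.1 TPM the difference was -1.34.

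Genes known to act downstream of HOXA9 and MEIS1 numbered 13, of which 9 were tested at baseline, with 4 higher and 1 lower. ID2 was higher in MONO-MAC-6 by 1.42 (adjusted p = 3.26e-05), TRIB2 by 1.33 (adjusted p = 0.000119) and SPI1, the myeloid master regulator PU.1, by 0.70 (adjusted p = 0.000433). TRIB2 was listed at 0 in all 6 MOLM-13 samples and averaged 1.53 TPM in MONO-MAC-6 DMSO, so its difference follows from the added value and was 4.01 with an added 0.1 TPM. SOX4, a progenitor transcription factor, was at 20.02, 18.2 and 16.7 TPM in MOLM-13 DMSO and at 3.44, 3.89 and 4.01 TPM in MONO-MAC-6 DMSO, a difference of -2.01 (adjusted p = 5.62e-05). A9 called 0 of 8 in MOLM-13 (1 at an unadjusted p under 0.05) and 1 of 9 in MONO-MAC-6, where SPI1 rose by 0.38 (adjusted p = 0.0451). The SPI1 call was lost with median-ratio scaling and in 5 of 6 fits that left out 1 sample.

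Of the 11 monocytic markers, 10 were tested at baseline, with 4 higher and 3 lower in MONO-MAC-6, where 48.8% of all genes were called. LYZ was higher by 4.67 (limma adjusted p = 1.65e-06) and FCER1G by 4.18 (adjusted p = 4.15e-06). CD4 was lower by -5.11 (adjusted p = 3.76e-06), a size set by the added 1 TPM, and TYROBP by -1.82 (adjusted p = 8.31e-05). With A9, 1 of 9 tested markers was called in MOLM-13 and 4 of 9 in MONO-MAC-6. LYZ, which encodes lysozyme, rose by 1.29 (SE 0.08, adjusted p = 0.00517) in MOLM-13, and that call was lost without A9 sample 1 (adjusted p = 0.0659). The markers called in MONO-MAC-6 all rose: TYROBP by 2.24 (adjusted p = 0.00207), CD14 by 1.77 (adjusted p = 0.00255), CD68 by 1.72 (adjusted p = 0.00538) and LYZ by 1.17 (adjusted p = 0.00274). ITGAM, ITGAX, FCER1G, FCGR1A and CD33 did not pass there. CD68 was lost in 2 of 6 fits that left out 1 sample. In the same MONO-MAC-6 libraries HOXA9 differed by 0.01 and MEIS1 by -0.07, with the intervals given above. Fewer cells of a type and less RNA per cell cannot be told apart in bulk samples.

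The members were next followed as single transcripts. Of 109 member transcripts, 101 were above 0 in at least 1 sample and 46 averaged 1 TPM or more in a group. Kallisto divides reads between the transcripts of a gene, so these values are less certain than the gene sums. A9 called 0 of 42 tested member transcripts in MOLM-13, with 3 at an unadjusted p under 0.05, where 0.00982% of all 40728 transcripts were called and 5.34% reached that unadjusted level. In MONO-MAC-6 it called 0 of 35, with 3 at an unadjusted p under 0.05, where 0.406% of 48474 were called and 16.3% had an unadjusted p under 0.05. The interaction called 0 of 46, with 7 at an unadjusted p under 0.05, where 0.573% of all transcripts were called and 13.8% had an unadjusted p under 0.05.

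Between the lines at baseline, 15 of 42 member transcripts were called, 4 higher and 11 lower in MONO-MAC-6, against 30.5% of all 47296 transcripts. The lines did not overlap for 24 of the 42, against 47.4% of all transcripts. All 3 called PBX3 and HOXA7 transcripts and HOXA9-201 were higher, and the 3 called HOXA10 transcripts, the 7 called MEF2C transcripts and MEIS1-202 were lower. HOXA9-201, which encodes the full homeodomain protein, was at 15.1, 15.4 and 14.1 TPM in MOLM-13 DMSO and at 19.2, 23.0 and 21.4 TPM in MONO-MAC-6 DMSO, a difference of 0.48 (SE 0.12, limma adjusted p = 0.0254). HOXA9-202, from which the segment printed above is spliced out, was at 19.6, 16.8 and 15.2 TPM in MOLM-13 DMSO and at 11.0, 24.6 and 29.7 TPM in MONO-MAC-6 DMSO, a difference of 0.22 (adjusted p = 0.681). The first MONO-MAC-6 DMSO sample stood farther below the others in the truncated form than in HOXA9-201.

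A further HOXA9 transcript, HOXA9-206, is a noncoding processed transcript whose 5′ end lies 3914 bases upstream of that of HOXA9-201. It held 36.9% of HOXA9 TPM in MOLM-13 DMSO and 38.7% in MONO-MAC-6 DMSO, against 24.5% and 28.6% for HOXA9-201. Coding transcripts together held 52.7% of HOXA9 TPM in MOLM-13 DMSO, 53.4% in MOLM-13 A9, 56.6% in MONO-MAC-6 DMSO and 61.1% in MONO-MAC-6 A9. By this division of reads, the gene sum of HOXA9 includes RNA assigned to noncoding transcripts in every group. The size of that part is uncertain, since HOXA10-AS (chr7:27168619-27171915) overlaps the 5′ end of HOXA9-206 and its reads cannot be told apart.

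HOXA10 came mainly from HOXA10-201, which starts at the CG-rich proximal promoter and encodes the homeodomain. It was at 31.5, 31.7 and 31.997 TPM in MOLM-13 DMSO and at 16.6, 20.2 and 19.3 TPM in MONO-MAC-6 DMSO, a difference of -0.74 (SE 0.11, adjusted p = 0.00491). HOXA10-202 begins 5955 bases upstream of HOXA10-201, within 22 bases of the RefSeq start of the readthrough. Its coding sequence is 282 bases long against 1230 for HOXA10-201. It was at 4.40, 3.70 and 4.20 TPM in MOLM-13 DMSO and at 0.553, 1.48 and 1.13 TPM in MONO-MAC-6 DMSO, a difference of -1.34 (SE 0.22, adjusted p = 0.00627). Both transcripts were lower in MONO-MAC-6, and HOXA10-202 held 9.26% of HOXA10 TPM in MOLM-13 DMSO and 4.19% in MONO-MAC-6 DMSO. With A9, HOXA10-202 was at 2.55, 3.29 and 2.59 TPM in MOLM-13, below all DMSO samples, a difference of -0.42 that did not pass (SE 0.14, adjusted p = 0.881).

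PBX3 differed between the lines in the form it took as well as in its level. PBX3-201, without the exon printed above, was at 16.3, 18.7 and 15.7 TPM in MOLM-13 DMSO and at 28.9, 36.5 and 38.1 TPM in MONO-MAC-6 DMSO, a difference of 0.98 (SE 0.14, adjusted p = 0.00456). PBX3-204, with the exon, was at 9.74, 8.87 and 9.63 TPM in MOLM-13 DMSO and at 34.8, 51.2 and 42.6 TPM in MONO-MAC-6 DMSO, a difference of 2.06 (SE 0.16, adjusted p = 0.000486). Over the 4 transcripts with the exon and the 3 that span it without including it, the exon-containing share was 49.4%, 42.6% and 42.6% in MOLM-13 DMSO (44.9% ± 3.90, SD, n = 3) and 55.9%, 61.1% and 57.3% in MONO-MAC-6 DMSO (58.1% ± 2.66, SD, n = 3). With A9 it was 45.4%, 47.1% and 36.7% in MOLM-13 and 59.1%, 58.9% and 57.6% in MONO-MAC-6. All 6 MONO-MAC-6 samples lay above all 6 MOLM-13 samples, and the A9 and DMSO samples of a line overlapped. The share was chosen for description after its values were seen, and no test of it was made.

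**Figure D5:**
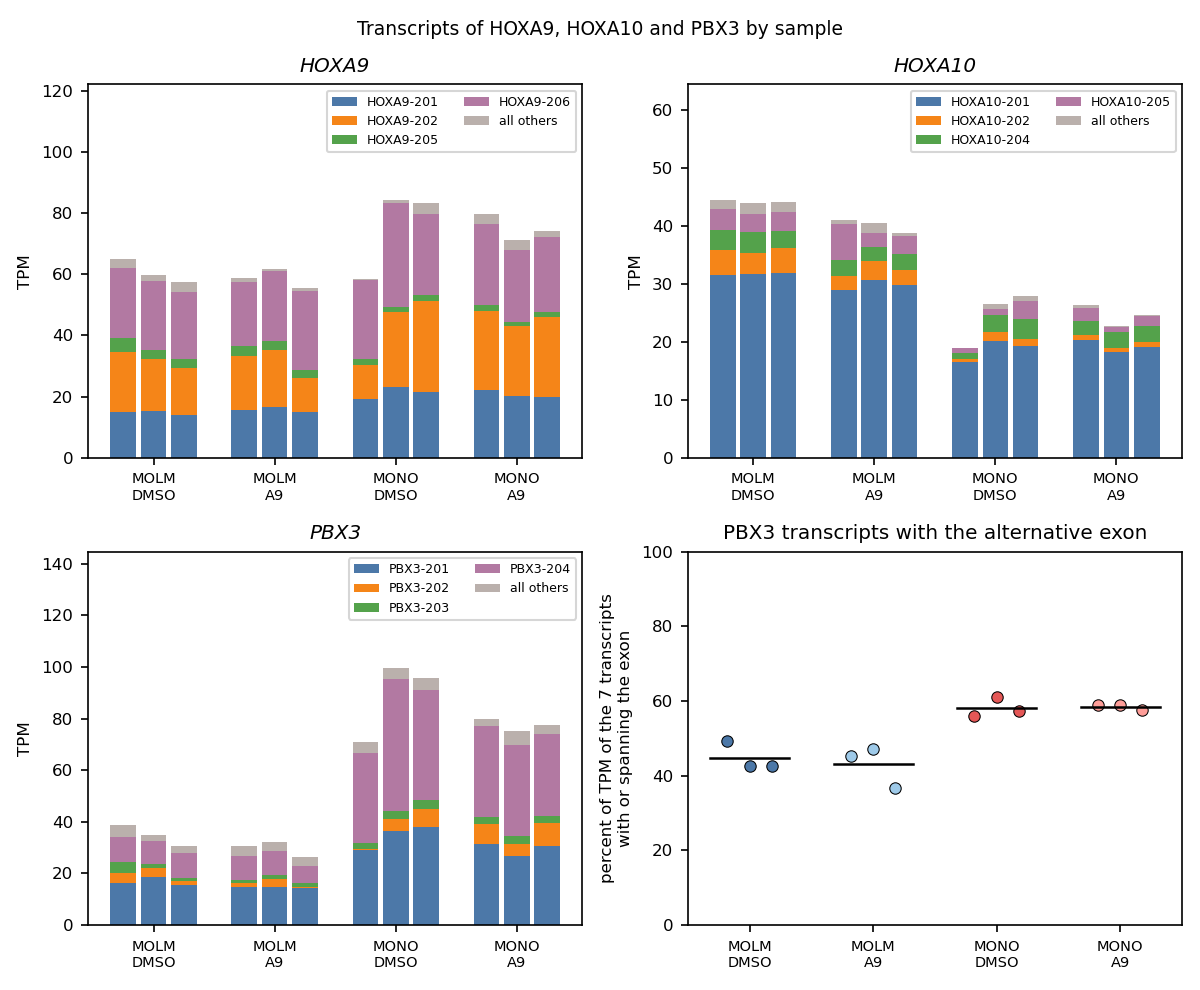
Stacked bars give the TPM of the 4 leading transcripts and of all others for HOXA9, HOXA10 and PBX3 in each of the 12 samples, and the last panel gives the exon-containing transcripts of PBX3 as a percent of the summed TPM of the 4 transcripts with the alternative exon and the 3 that span it, with a bar at the group mean. PBX3-204 takes 27.4% of PBX3 in MOLM-13 DMSO and 48.3% in MONO-MAC-6 DMSO, and the exon share is between 55.9% and 61.1% in the 6 MONO-MAC-6 samples and between 36.7% and 49.4% in the 6 MOLM-13 samples.

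The lower MEF2C of MONO-MAC-6 was spread over several transcripts. MEF2C-249 was at 10.5, 7.44 and 6.27 TPM in MOLM-13 DMSO and under 0.5 TPM in every MONO-MAC-6 DMSO sample, a difference of -2.86 (SE 0.25, adjusted p = 0.000702). MEF2C-244 was at 6.57, 8.04 and 6.57 TPM in MOLM-13 DMSO and at 0.884, 1.84 and 1.13 TPM in MONO-MAC-6 DMSO, a difference of -1.83 (SE 0.21, adjusted p = 0.00173). Transcripts that begin within 500 bases of the start whose upstream sequence is printed above held 55.6% of MEF2C TPM in MOLM-13 DMSO (SD 3.78). They held 33.7% in MONO-MAC-6 DMSO (SD 8.13). With A9 the order of the lines was not kept, at 43.0% in MOLM-13 (SD 13.95) and 45.1% in MONO-MAC-6 (SD 5.2). No test of these shares was made. MEF2C-244 is not among these, since its 5′ end lies 563 bases upstream of that start. In A9-treated MOLM-13, MEF2C-244 was at 8.02, 7.71 and 7.69 TPM, so this form kept a narrow range while total MEF2C ran from 29.9 to 55.9 TPM.

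HOXA5-201, the coding HOXA5 transcript, was lower with A9 in both lines without passing the test in either. In MOLM-13 it was at 3.47, 2.99 and 3.19 TPM with DMSO and at 2.64, 2.45 and 2.77 TPM with A9, a difference of -0.22 (95% interval -0.53 to 0.08, adjusted p = 0.881). In MONO-MAC-6 it was at 4.003, 4.27 and 4.68 TPM with DMSO and at 3.78, 3.16 and 3.70 TPM with A9, a difference of -0.23 (95% interval -0.59 to 0.13, adjusted p = 0.426). The groups did not overlap in either line, as for 8 of 42 tested member transcripts in MOLM-13 and 6 of 35 in MONO-MAC-6, against 12.6% and 31% of all transcripts tested. The noncoding HOXA5-202 held the rest of the gene sum, 28.4% in MOLM-13 DMSO and 43.5% with A9, and 30.5% in MONO-MAC-6 DMSO and 44.0% with A9. The share of HOXA5-201 overlapped in MOLM-13, at 60.5%, 83.6% and 70.8% with DMSO and 49.5%, 56.9% and 63.1% with A9. In MONO-MAC-6 it was 66.0%, 73.3% and 69.1% with DMSO and 58.9%, 44.5% and 64.7% with A9, without overlap. No test of these shares was made. MEIS1-212 was at 2.39, 2.27 and 1.74 TPM in MONO-MAC-6 DMSO and at 1.02, 0.819 and 1.02 TPM with A9, a difference of -0.67 (SE 0.15, adjusted p = 0.175). PBX3-210, a retained-intron form, was at 1.38, 1.36 and 1.04 TPM in MOLM-13 DMSO and at 2.19, 2.34 and 2.25 TPM with A9, a difference of 0.53 (SE 0.13, adjusted p = 0.686).

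The genes whose pattern was most like that of 3 members were sought among 8052 genes over the 12 samples, after each line's mean was subtracted. For HOXA9 these were GOLGA8O (Pearson r 0.980), ZFR (0.975) and ICAM5 (0.969). For MEIS1 they were RAD21 (0.978), SPATS2 (0.978) and IRF2 (0.973), and for MEF2C PPP2R5E (0.975), CHST11 (0.972) and PIK3AP1 (0.971). Against HOXA9 itself, HOXA10 reached 0.914, MEF2C 0.887, PBX3 0.808, MEIS1 0.784 and HOXA7 0.766. By this measure HOXA10 ranked 242, MEF2C 577, PBX3 2094, MEIS1 2491 and HOXA7 2777 of the 8052 genes. The 12 points share the axis of transcript length described above, and these values are a description only.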

How the data were processed

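Poly(A) RNA of MOLM-13 and MONO-MAC-6 cells was sequenced with paired-end reads of 150 bases, per the labels' protocols. The authors deposited 1 table of TPM per line, with transcripts quantified with kallisto on GRCh38, per the submitters' processing notes, which also name limma. TPM hold no counts, so depth is unknown. Of 207175 transcripts, 162561 (78.5%) matched GENCODE 29 by identifier, with 89.9% to 91.4% of the TPM, and were summed by symbol. The 44614 others were left out and may include isoforms of the members.

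The 3 libraries with the same first number were averaged. Genes or transcripts that averaged 1 TPM or more in either group compared were fitted as log2(TPM + 1) with limma 3.58.1 in R 4.3.3 (lmFit, eBayes with trend and robust), two-sided, with Benjamini-Hochberg adjustment over all features tested and a threshold of 0.05. The method was tested on simulated data, with independent noise and a single shift larger than the A9 difference of any member. That test does not show how well differences of the members' size would be found. The p-values measure only the spread between these samples, which may be technical. Median-ratio scaling, other averaging, minimum and pseudocount, a replicate block, removal of a length trend and leaving out each sample were alternatives. The members and lists were chosen with earlier results of these data known. All members were named, and of each other list up to 4 called genes with the largest differences, plus the genes of the HOXA locus, 1 of which is not reported here. Genes named as most like a member were the 3 with the highest correlation among genes with at least 5 TPM in each line. HOXC5, HOXC6, HOXC8, HOXC9 and HOXC10 were looked up after seeing the data. Python 3.11.15, pandas 2.3.3, numpy 2.4.6 and matplotlib 3.10.9 were used.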

Additional observations from a re-analysis of the deposited data

Results flagged for a closer look

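For 4 genes outside the HOXA and MEIS1 programme, the A9 difference was larger in 1 line than in the other by the interaction test of limma over the 12 samples. TYROBP, an adaptor of myeloid receptors, differed by 1.997 on the log2 scale, MONO-MAC-6 minus MOLM-13 (adjusted p = 0.000163). It went from 10.8, 8.73 and 8.82 TPM with DMSO to 40.4, 56.5 and 48.4 TPM with A9 in MONO-MAC-6, and from 32.6, 37.3 and 37.6 to 40.6, 42.6 and 44.0 TPM in MOLM-13.

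CD14, a monocyte surface receptor, differed by 1.73 (adjusted p = 0.000215) and was under 0.5 TPM in all 6 MOLM-13 samples. CD68, a lysosomal membrane protein of monocytes, differed by 1.49 (adjusted p = 0.00515). LAMP5, a KMT2A-fusion target, differed by -0.91 (adjusted p = 0.00601; -1.63 with an added 0.1 TPM), with A9 samples above DMSO in MOLM-13 and below DMSO in MONO-MAC-6, where all values were at 1.26 TPM or less. Line and dose cannot be told apart in these differences.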

How the results depend on the processing

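With a pseudocount of 0.1, a minimum of 5 TPM or none, or median-ratio scaling, 0 members were called for A9 in either line or for the interaction, and PBX3, HOXA7, HOXA10 and MEF2C stayed called between the lines. Averaging by the second library number, which leaves out the spread between samples, called 5 members in MOLM-13, 3 in MONO-MAC-6, 9 at baseline and 4 in the interaction. Removing the length trend called 1 member for A9 in MONO-MAC-6. A minimum of 5 TPM left 8 of the 15 member transcripts called at baseline. Leaving out 1 sample gave 0 to 2 members for A9 in MONO-MAC-6, the 2 without DMSO sample 1, and 0 for A9 in MOLM-13.

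Same-numbered samples did not all deviate together (the correlations were 0.34, -0.071 and 0.66 for MOLM-13, -0.023, 0.083 and -0.093 for MONO-MAC-6, and -0.63, 0.069 and -0.58 for the DMSO groups), so they were treated as sharing only a number, although 2 of the 3 MOLM-13 pairs were above 0.1. With a replicate block, 0, 0, 3 and 0 members were called in the 4 comparisons, MEF2C at baseline having an adjusted p of 0.0531, and 87, 102, 4111 and 207 genes.

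Of all genes, 14 were called for A9 in MOLM-13, 433 for A9 in MONO-MAC-6, 6308 at baseline and 401 in the interaction. Leaving out 1 sample gave 2 to 8, 59 to 3202, 4646 to 8070 and 197 to 549. Averaging by the second number gave 5437, 8701, 11057 and 8502, each library as its own value 234, 1599, 6964 and 1244, and the removed length trend 177, 1197, 7977 and 740. Median-ratio scaling called 48 genes in MOLM-13, and no minimum called 4 there and 254 in MONO-MAC-6. Of the genes called as higher and lower, the length trend gave 638 and 559 in MONO-MAC-6, and 4014 and 3963 at baseline.

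Signs of differences that were not called turned as follows. With median-ratio scaling, A9 in MONO-MAC-6 gave -0.0077 for HOXA3, -0.11 for HOXA5, -0.15 for HOXA9, -0.13 for HOXA10 and -0.053 for MEF2C, and the interaction -0.18 for HOXA5, -0.15 for HOXA9, -0.040 for HOXA10, -0.0021 for MEIS1 and -0.17 for PBX3. With the second number, HOXA5 was at -0.0094 in MOLM-13 and HOXA9 at -0.0064 in MONO-MAC-6. With the length trend removed, HOXA5 was at -0.0057 in MOLM-13, and HOXA3 at -0.042, HOXA9 at -0.046, HOXA10 at -0.12 and MEF2C at -0.13 in MONO-MAC-6, with HOXA6 at -0.15 at baseline. The interaction was then -0.016 for HOXA3, -0.019 for HOXA5, -0.0011 for HOXA9, -0.044 for HOXA10, -0.067 for MEIS1 and -0.22 for PBX3. Leaving out 1 sample, A9 in MOLM-13 ranged from -0.30 to 0.072 for HOXA3, -0.11 to 0.17 for HOXA5, -0.053 to 0.11 for HOXA7, -0.087 to 0.0012 for HOXA9 and -0.60 to 0.010 for MEF2C. A9 in MONO-MAC-6 ranged from -0.20 to 0.28 for HOXA3, -0.032 to 0.10 for HOXA5, -0.16 to 0.10 for HOXA9, -0.14 to 0.13 for HOXA10, -0.22 to 0.021 for MEIS1 and -0.32 to 0.37 for MEF2C. HOXA6 ranged from -0.26 to 0.60 at baseline. The interaction ranged from -0.10 to 0.40 for HOXA3, -0.14 to 0.14 for HOXA5, -0.11 to 0.15 for HOXA9, -0.00030 to 0.27 for HOXA10, -0.12 to 0.13 for PBX3 and -0.0058 to 0.69 for MEF2C. The cause was not tested. With unknown depth, low members such as HOXA3 and HOXA6 are the least certain.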

Other observations

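MOLM-13 also held RNA of the HOXC cluster, which was looked up after seeing the data. HOXC10 was at 4.68, 5.45 and 4.20 TPM in MOLM-13 DMSO and at 5.58, 6.66 and 6.03 TPM in MOLM-13 A9, and it was listed at 0 in all 6 MONO-MAC-6 samples. HOXC6 was at 1.07, 1.19 and 1.08 TPM in MOLM-13 DMSO and at most 0.334 TPM in MONO-MAC-6 DMSO. HOXC5, HOXC8 and HOXC9 averaged 0.963 TPM or less in every group. No test of these 5 genes was made.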
